A study of Mus musculus with 6 samples.

Results

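Major histocompatibility complex (MHC) class I and interferon-response genes were examined in whole mouse brain lacking TRMT1L. The members were the rows whose Ensembl identifier carries the symbol B2m, H2-D1, H2-K1, Irf7, Ifit1, Ifit3, Isg15, Ifi27 or Bst2 in GENCODE M21, which gave 9 of 55450 annotated genes. The study sequenced long RNA from total brain of 3 TRMT1L knockout (KO) and 3 wild-type (WT) samples, described as biological triplicates. TRMT1L is a relative of the transfer RNA methyltransferase TRMT1. The labels give the genotype as TRMT1L KO or WT. The allele, strain, sex, age and litter are not given in the sources used here, so p-values measure the spread between these 6 samples and whatever that spread includes. Levels are in CPM, counts scaled to library size (1e6 reads in genes) with TMM factors, and log2 fold changes are KO over WT.

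Class I molecules are made of a heavy chain, in mouse H2-K or H2-D, and the light chain beta-2 microglobulin, and they show peptides from inside the cell to CD8 T cells and natural killer cells. Type I interferon acts through its receptor and JAK kinases and induces many antiviral genes, a number of which carry the interferon-stimulated response element (ISRE) before their start. In the healthy brain these genes are low in neurons and are expressed mainly by microglia and vascular cells.

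The promoters are shown first because the ISRE is the sequence through which interferon acts on such genes. RefSeq promoters (build GRCm38.p6, 250 bases before to 50 after each start) were matched by symbol for 8 of the 9 genes, all but Ifi27. The ISRE was searched as GAAANNGAAA on both strands, and overlapping matches were each counted. It was present in 5 of the 8 promoters, against 3.44% of all 32851 promoters of that length. The stretches from -160 to -51 relative to the start are printed on the strand of the gene, with ISRE matches in capitals.
Ifit1: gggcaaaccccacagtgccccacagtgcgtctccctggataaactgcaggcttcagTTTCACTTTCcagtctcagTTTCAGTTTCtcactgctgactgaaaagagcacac
Ifit3: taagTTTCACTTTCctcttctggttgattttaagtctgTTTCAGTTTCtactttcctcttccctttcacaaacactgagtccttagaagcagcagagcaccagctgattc
Isg15: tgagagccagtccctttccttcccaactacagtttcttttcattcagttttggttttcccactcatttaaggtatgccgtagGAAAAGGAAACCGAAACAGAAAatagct
Bst2: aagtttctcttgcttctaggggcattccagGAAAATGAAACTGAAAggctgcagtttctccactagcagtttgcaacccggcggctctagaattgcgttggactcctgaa
B2m: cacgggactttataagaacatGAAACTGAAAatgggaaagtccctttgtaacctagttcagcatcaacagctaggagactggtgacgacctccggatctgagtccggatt
H2-K1: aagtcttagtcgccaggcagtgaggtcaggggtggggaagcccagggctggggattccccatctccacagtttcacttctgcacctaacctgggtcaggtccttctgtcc
H2-D1: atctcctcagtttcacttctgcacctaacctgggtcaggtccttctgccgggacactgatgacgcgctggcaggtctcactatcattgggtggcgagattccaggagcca

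These stretches lie at chr19:34640729-34640838 (plus strand) for Ifit1, chr19:34583369-34583478 (plus) for Ifit3, chr4:156200869-156200978 (minus) for Isg15, chr8:71537523-71537632 (minus) for Bst2 and chr2:122147527-122147636 (plus) for B2m. Those of the heavy chain genes lie at chr17:34000398-34000507 (minus) for H2-K1 and chr17:35262934-35263043 (plus) for H2-D1. Isg15 held 3 overlapping ISRE matches, Ifit1 and Ifit3 held 2 separate ones, Bst2 held 2 overlapping ones and B2m held 1. These letters were not in the windows of H2-K1, H2-D1 and Irf7. The stretches of H2-K1 and H2-D1 both hold tttcacttct, which departs from the searched letters only in its last bases. Only exact matches were searched, so forms of the ISRE that depart from these letters were not counted in any promoter. The gamma-activated site, searched as TTCNNNGAA, was in 1 of the 8 promoters, that of Bst2, where it overlapped an ISRE match, and in 8.3% of all promoters. Of the other interferon-stimulated genes listed for the pathway, 31 of 59 with a promoter held an ISRE, and of the other class I heavy chains 2 of 12. A match is a description of the sequence.

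All 9 genes are protein-coding and passed the filter on low counts. B2m is on chromosome 2 (122147686 to 122153083), Isg15 on 4 (156199424 to 156200818), Irf7 on 7 (141262706 to 141266481), Bst2 on 8 (71534255 to 71537456) and Ifi27 on 12 (103434211 to 103440239). H2-K1 (33996017 to 34000347) and H2-D1 (35262730 to 35267499) are both in the MHC on chromosome 17, and Ifit3 (34583531 to 34588731) and Ifit1 (34640871 to 34650009) are neighbours on chromosome 19. The count files list reads mapped to several places apart from the gene rows, and some members share sequence with relatives. Of all 50-base windows of the longest coding transcript, 51.2% of those of Ifit3 also occur in Ifit3b, 7.06% of those of Ifit1 in Ifit1bl2, and 6.94% of those of H2-K1 in H2-D1. For H2-D1, 14.3% occur in other genes, most often in H2-Q1. Counts of Ifit3, H2-D1, H2-K1, Ifit1 and Isg15 (3.96% shared) are therefore uncertain, whereas B2m, Irf7, Ifi27 and Bst2 had no shared window. An exon of Irf7 overlaps Phrf1 on the other strand by 45 bases, which the stranded counts keep apart.

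The libraries held between 78341827 and 89979690 reads, of which between 31201119 and 36145961 were counted in genes. The targeted gene Trmt1l had between 1034 and 1279 counts in WT and between 93 and 106 in KO libraries (log2 fold change -3.58, SE 0.0813; edgeR adjusted p = 6.95e-10), so all 6 libraries lay on the side of their labels. Defining markers of neurons and oligodendrocytes were abundant in all 6 libraries, with summed levels of 3061 to 3350 CPM and 2812 to 3712 CPM.

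No member passed the test between the genotypes. With edgeR's quasi-likelihood test, 0 of the 9 genes passed at the adjusted threshold of 0.05, where 0.00942% of the 21237 genes tested did, and 0 passed at an unadjusted p-value under 0.05, where 7.92% of all genes did. The KO and WT libraries stood fully apart for 0 of 9 members, against 14.4% of all genes. The median log2 fold change of the members was -0.02, with 4 above and 5 below 0, beside 0.00013 over all genes. The intervals given with each gene show which differences could not be told from 0. WT library 2 was the highest of the 3 WT libraries and KO library 3 the highest of the 3 KO libraries for each of the 9 members, an arrangement seen in 13.7% of all genes tested. These libraries were picked out after the values were seen. In RNA of a whole brain, fewer cells of a type and less RNA per cell cannot be told apart.

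**Figure D1:**
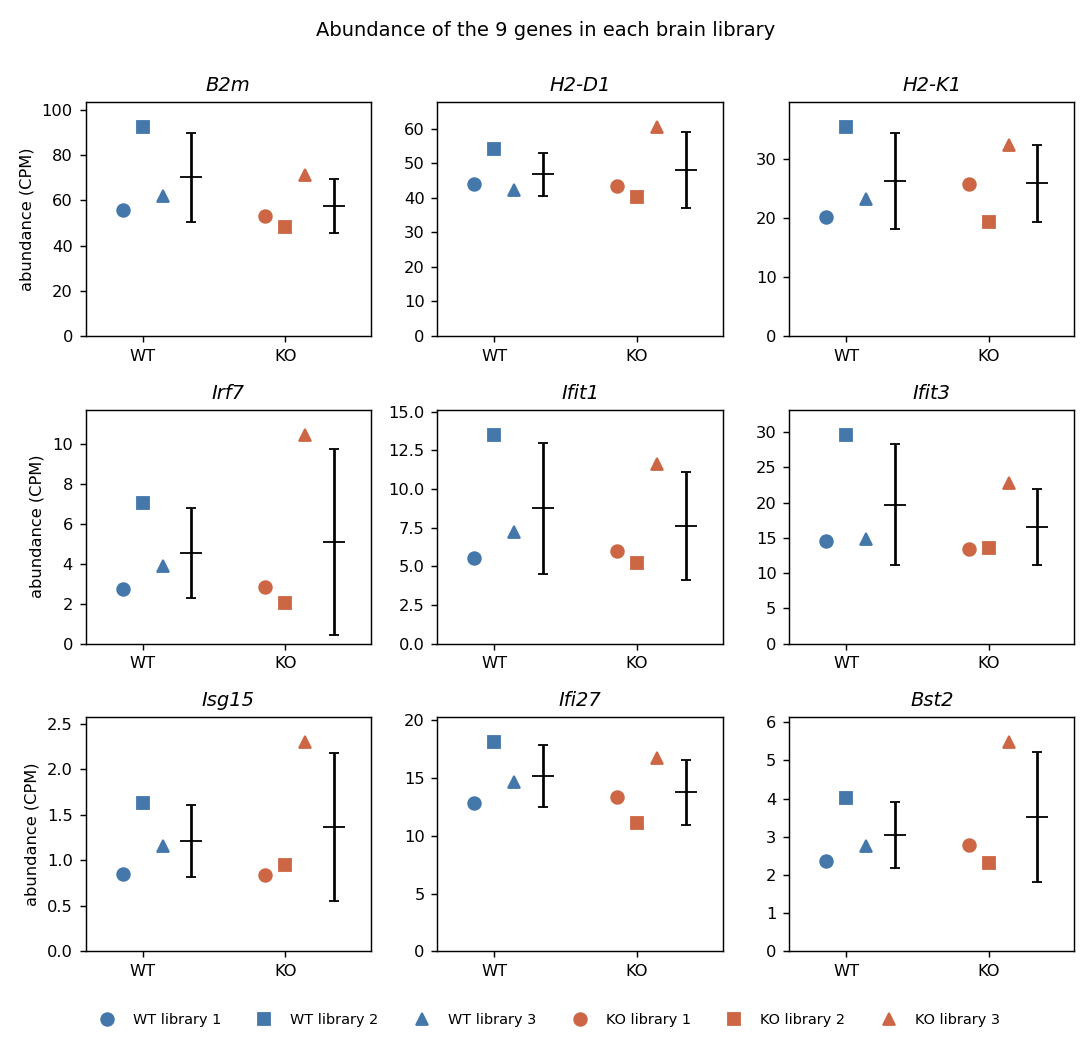
Abundance of the 9 genes in CPM (vertical axes, each starting at 0) in the 3 WT (blue) and 3 KO (orange) libraries, with marker shape giving the library number and black bars the mean ± SD (n = 3). In each panel WT library 2 (blue square) and KO library 3 (orange triangle) are the highest of their genotype, and the groups overlap.

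The class I light chain was taken first. B2m had 55.8, 92.5 and 62.1 CPM in WT libraries 1 to 3 and 53.0, 48.3 and 71.2 CPM in KO libraries 1 to 3. The groups overlapped, since KO library 3 lay above WT libraries 1 and 3. Its log2 fold change was -0.28 (SE 0.173, 95% interval -0.66 to 0.10; edgeR adjusted p = 0.714). B2m had the smallest p-value of the 9 genes, and its difference moved with the library left out, from -0.03 without WT library 2 to -0.47 without KO library 3 (edgeR adjusted p = 0.979 and 0.576). In a fit without a filter on low counts it passed the threshold (-0.28, edgeR adjusted p = 0.00122). In that fit the prior degrees of freedom were infinite, so genes had no spread of their own, whereas the filtered fit had 7.53; it called 298 genes in all.

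Both heavy chains had the same highest library in each genotype as B2m. H2-K1 had 20.1, 35.4 and 23.3 CPM in the WT libraries and 25.8, 19.4 and 32.5 CPM in the KO libraries. Its log2 fold change was -0.02 (SE 0.201, 95% interval -0.46 to 0.42; edgeR adjusted p = 0.989), with 0.26 without WT library 2 and -0.21 without KO library 3. H2-D1 had 43.9, 54.1 and 42.4 CPM in WT and 43.4, 40.3 and 60.6 CPM in KO. H2-D1 averaged 46.8 ± 6.36 (WT) and 48.1 ± 10.9 (KO) CPM (SD, n = 3), and the log2 fold change was 0.04 (SE 0.135, 95% interval -0.25 to 0.34; edgeR adjusted p = 0.960). It was 0.16 without WT library 2 and -0.16 without KO library 3. H2-D1 had the narrowest spread of the members in WT, where its highest library was 1.28 times its lowest.

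Irf7, the transcription factor that amplifies type I interferon production and is itself induced by interferon, spread the most. It had 2.72, 7.05 and 3.89 CPM in the WT libraries, from 99, 221 and 128 counts. In KO libraries 1 to 3 it had 2.85, 2.02 and 10.5 CPM, from 99, 68 and 379 counts. KO library 3 was thus the highest of all 6 and KO library 2 the lowest, a ratio of 5.19 within 1 genotype, beside a ratio of 2.59 in WT. KO over WT, the log2 ratio was 0.19 (SE 0.507, 95% interval -0.92 to 1.30, edgeR adjusted p = 0.948), with an interval that spans changes in both directions. It was -0.89 without KO library 3 and 0.64 without WT library 2.

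Ifit1 and Ifit3 encode RNA-binding proteins that restrain translation of viral RNA. Ifit1 had 5.52, 13.5 and 7.20 CPM in WT and 5.99, 5.23 and 11.6 CPM in KO. Ifit3 had 14.6, 29.6 and 14.9 CPM in WT and 13.4, 13.5 and 22.8 CPM in KO. In both genes WT library 2 was the highest of all 6 libraries and KO library 3 the next. The log2 fold change of Ifit1 was -0.19 (SE 0.328, 95% interval -0.91 to 0.53; edgeR adjusted p = 0.911), with 0.27 without WT library 2 and -0.63 without KO library 3. That of Ifit3 was -0.24 (SE 0.264, 95% interval -0.82 to 0.34; edgeR adjusted p = 0.845), with 0.17 and -0.54 in the same fits.

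Isg15, a ubiquitin-like protein that interferon induces and that is joined to other proteins, was the least abundant member. It had 31, 51 and 38 counts in WT, or 0.852, 1.63 and 1.15 CPM, and 29, 32 and 83 counts in KO, or 0.835, 0.951 and 2.30 CPM. KO library 3 stood highest of all 6 libraries. The log2 fold change was 0.19 (SE 0.369, 95% interval -0.62 to 0.995, edgeR adjusted p = 0.925), with 0.45 without WT library 2 and -0.43 without KO library 3.

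Ifi27, an interferon-induced membrane protein, and Bst2, also called tetherin, which holds enveloped viruses at the cell surface, completed the effectors. Ifi27 had 12.8, 18.1 and 14.6 CPM in WT and 13.3, 11.1 and 16.8 CPM in KO (log2 fold change -0.14, SE 0.149, 95% interval -0.47 to 0.19; edgeR adjusted p = 0.842). Bst2 had 2.36, 4.02 and 2.77 CPM in WT and 2.79, 2.32 and 5.48 CPM in KO (log2 fold change 0.22, SE 0.294, 95% interval -0.42 to 0.87; edgeR adjusted p = 0.875). The differences were 0.0051 for Ifi27 and 0.47 for Bst2 without WT library 2, and -0.31 and -0.25 without KO library 3. Ifi27 had a narrow range, with the highest library 1.41 times the lowest in WT and 1.51 times in KO, whereas that of Bst2 was 1.70 and 2.36 times.

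**Figure D2:**
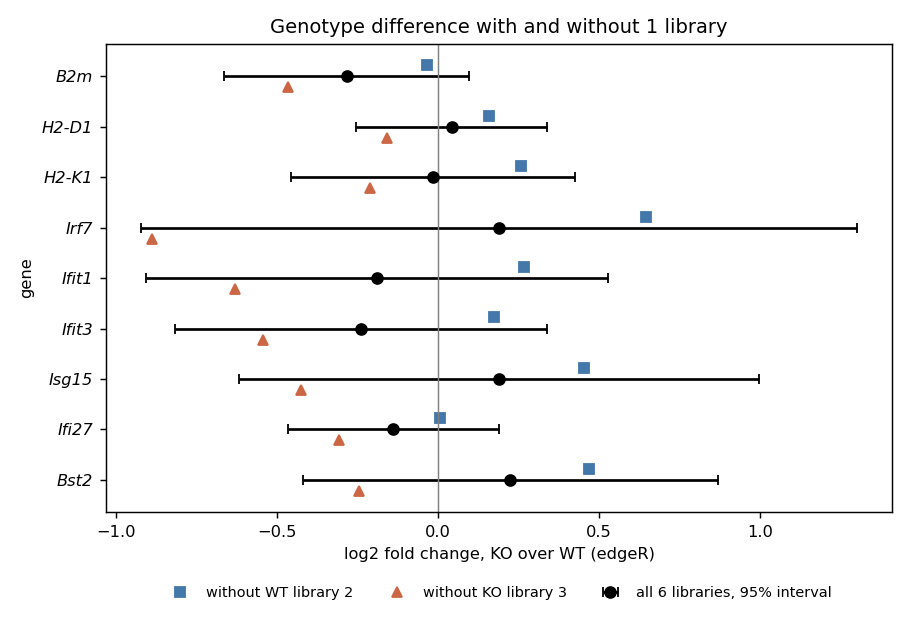
Log2 fold change of KO over WT for each gene (horizontal axis) with its 95% interval from all 6 libraries (black), without WT library 2 (blue squares) and without KO library 3 (orange triangles). All 9 intervals include 0, all 9 triangles lie below 0, and 8 of 9 squares lie above it, with B2m at -0.03 as the exception.

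The balance of directions moved with the library left out. Without KO library 3, 9 of 9 members were below 0 (median -0.43), and without WT library 2, 8 of 9 were above 0 (median 0.26). Each of these libraries was the highest of its genotype for all 9 members, so leaving it out lowers the mean of that genotype by construction. Without WT library 1, 8 of 9 were below 0 (median -0.18), and without WT library 3, KO library 1 or KO library 2 there were 6, 5 and 3 below 0. B2m was below 0 in each of the 6 fits. In these 6 fits 0 members were called, with a lowest edgeR adjusted p-value of 0.576, without KO library 3. At an unadjusted p-value under 0.05, 4 of 9 members passed without KO library 3, where 8.01% of all genes did, and 1 without WT library 1, where 6.3% did. The other 4 fits had 0, beside 5.5% of all genes without WT library 2, 6.32% without WT library 3, 8.58% without KO library 1 and 7.23% without KO library 2. With both libraries left out, a choice made after their values were seen, the median was -0.16, 8 of 9 members were below 0, and 0 were called (1 at an unadjusted p-value under 0.05, beside 5.18% of all genes; lowest edgeR adjusted p = 0.880).

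**Figure D3:**
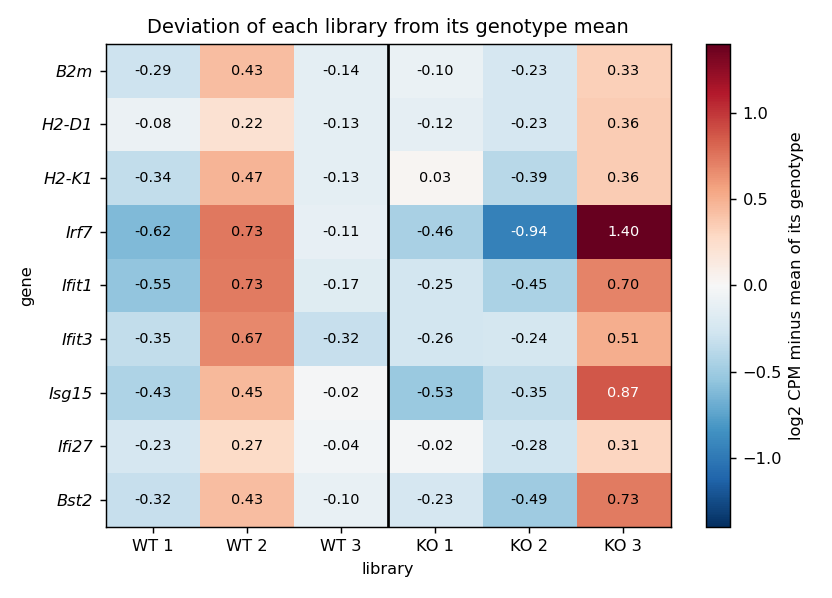
Log2 CPM (prior count of 2) of each gene in each library minus the mean of its genotype, as colour and printed value. WT 2 and KO 3 are positive for all 9 genes, from 0.22 for H2-D1 in WT 2 to 1.40 for Irf7 in KO 3, and the other libraries are negative except H2-K1 in KO 1 at 0.03.

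The spread between libraries of a genotype was wide for these genes. The ratio of the highest to the lowest library had a median over the members of 1.76 in WT and 1.71 in KO, beside 1.14 and 1.16 over all genes tested and 1.09 and 1.11 over the 12724 genes with a mean of at least 5 CPM. The members rose and fell together: Pearson's r of log2 CPM over the 6 libraries lay between 0.75 and 0.97 for the 36 pairs of members, with a median of 0.90. The lowest was that of B2m with Bst2 and the highest that of Irf7 with Bst2. These values describe 6 points that share their libraries. WT library 2 had the fewest counts in genes (31201119) and KO library 3 the second most (36078984); the part of depth in the pattern was not tested.

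Levels were compared between genes per kilobase of the longest coding transcript. B2m led with 81.5 ± 22.8 CPM per kb in WT and 66.8 ± 14.1 in KO (SD, n = 3), and all its values lay above those of H2-D1 (22.3 ± 3.03 and 22.9 ± 5.19). H2-K1 (16.2 ± 5.0 and 16.0 ± 4.04), Ifi27 (15.5 ± 2.74 and 14.1 ± 2.90) and Ifit3 (11.3 ± 4.93 and 9.50 ± 3.10) followed; H2-D1 overlapped H2-K1, H2-K1 overlapped Ifi27 and Ifi27 overlapped Ifit3. H2-K1 was above Ifi27 in 4 of 6 libraries, so their order was not settled. All values of Ifit3 lay above those of Bst2 (3.85 ± 1.09 and 4.46 ± 2.15). Bst2, Ifit1 (3.29 ± 1.59 and 2.87 ± 1.31), Irf7 (2.04 ± 1.0 and 2.29 ± 2.09) and Isg15 (1.6 ± 0.517 and 1.80 ± 1.07) overlapped, each above the next in 5 of 6 libraries.

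The rest of the pathway was read from 7 lists of 177 genes, of which 143 were tested. Of these, 0 passed the adjusted threshold of edgeR's test. At an unadjusted p-value under 0.05, 5 passed (3.50%, beside 7.92% of all genes), 5 higher in KO and 0 lower, where 4.54% and 3.38% of all genes did. That count depended on single libraries. Without KO library 3 it was 22 of 144 (15.3%, beside 8.01% of all genes), with 4 higher and 18 lower in KO. Without WT library 1 it was 10 of 144 (6.94%, beside 6.3%), and without WT library 3 it was 2 of 143 (1.4%, beside 6.32%). KO library 3 was the highest KO library for 62 of the 68 tested genes in the list of other interferon-stimulated genes. Leaving that library out lowers their KO mean by construction. The 5 genes that passed the unadjusted threshold with all 6 libraries, named after their values were seen, were Irf3 (log2 fold change 0.19), Stat3 (0.13), Adar (0.12), Slfn5 (0.36) and the class II chain H2-Eb1 (0.54). Their edgeR adjusted p-values lay between 0.592 and 0.628. The arrangement with WT library 2 and KO library 3 highest held for 100 of the 143 genes, or 69.9%.

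**Figure D4:**
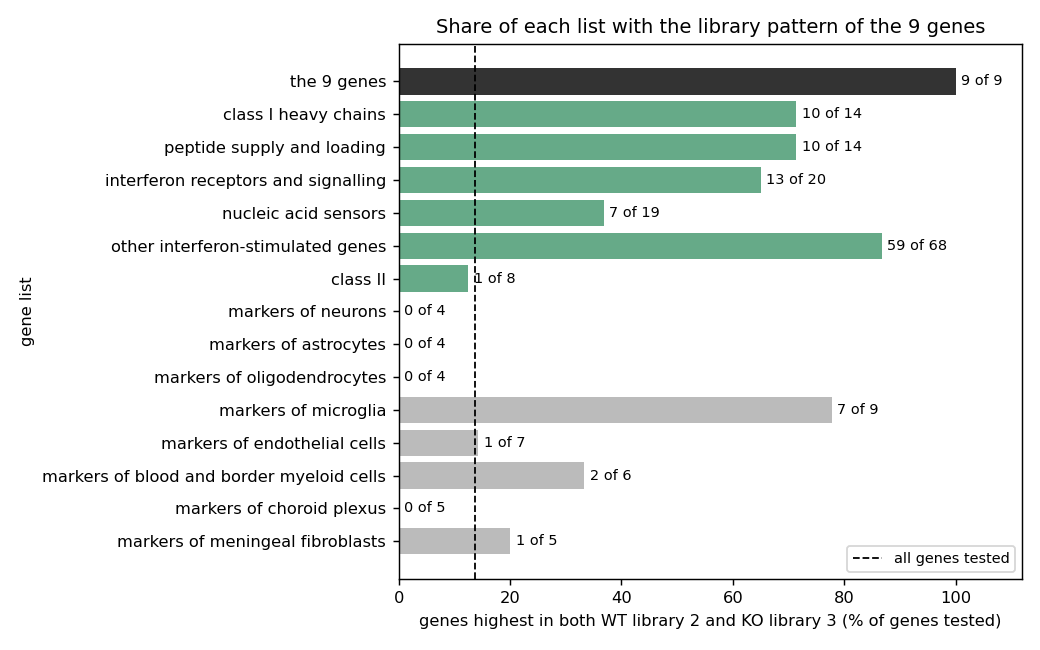
Percent of the tested genes of each list whose highest WT library is WT 2 and whose highest KO library is KO 3 (horizontal axis), with counts beside the bars and the 13.7% of all genes tested as a dashed line. The list of other interferon-stimulated genes stands at 59 of 68 and the class II list at 1 of 8; only lists with at least 4 tested genes are drawn.

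Other interferon-stimulated genes had the arrangement in 59 of 68 tested genes, with a median ratio of highest to lowest library of 1.70 in WT and 1.74 in KO. Their median log2 fold change was -0.08, with 21 above and 47 below 0, and 0 passed at an adjusted and 1 at an unadjusted p-value under 0.05. The most abundant were Usp25 (50.1 ± 2.14 CPM in WT and 46.1 ± 2.34 in KO), Shisa5 (30.3 ± 3.14 and 29.6 ± 2.41) and Lgals3bp (25.5 ± 7.70 and 23.8 ± 11.4; SD, n = 3). Lgals3bp, a secreted glycoprotein, had 18.9, 34 and 23.7 CPM in WT and 18.5, 16.0 and 36.9 CPM in KO. Usp25, a deubiquitinase, did not follow that pattern, as its highest WT library was library 3.

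Among the other class I heavy chains, 10 of 14 tested genes had the arrangement and 0 passed at either p-value. H2-T22 had 15.0 ± 1.76 CPM in WT and 16.7 ± 1.64 in KO, H2-T23 had 8.51 ± 2.22 and 9.70 ± 2.85, and H2-Q4 had 6.90 ± 2.34 and 7.04 ± 1.94 (SD, n = 3). Of the 14 genes that supply and load peptides, 10 had the arrangement and 0 passed at either p-value. The 3 most abundant, the chaperones Canx and Calr and the disulfide isomerase Pdia3, were among the other 4. Calr had 247, 226 and 283 CPM in WT and 236, 370 and 276 CPM in KO (log2 fold change 0.22, SE 0.132; edgeR adjusted p = 0.705). Calr was called in the fit without a filter on low counts (0.23, edgeR adjusted p = 0.00086), as 1 gene of the 7 lists.

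Receptors and signalling genes had the arrangement in 13 of 20, and of the 3 most abundant Ifnar1 had it and Jak1 and Jak2 did not. Jak1 had 172 ± 3.82 CPM in WT and 172 ± 2.68 in KO, Jak2 66.9 ± 8.13 and 66.6 ± 8.09, and Ifnar1, a chain of the type I receptor, 53.4 ± 2.91 and 54.6 ± 2.56 (SD, n = 3). Nucleic acid sensors and their regulators had it in 7 of 19. Adar, which edits double-stranded RNA, had 189 ± 4.17 and 205 ± 9.23 CPM, the kinase Tbk1 50 ± 2.88 and 51.4 ± 1.06, and Samhd1, a nucleotide hydrolase, 23.3 ± 0.433 and 24.9 ± 1.05. Of the 8 class II genes, 1 had the arrangement. Cd74, the invariant chain, had 4.09 ± 0.378 and 5.03 ± 0.885 CPM, H2-DMa 6.75 ± 1.02 and 6.34 ± 0.700, and H2-Aa 2.32 ± 0.708 and 2.17 ± 0.586. The interferon genes themselves were at the floor: 10 of 20 had no count in any library, and the others, Ifnab, Ifna2 and Ifna13 included, had at most 3 counts in any library.

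The genes most like the members were sought among 12718 other genes with a mean of at least 5 CPM, by Pearson's r with the mean scaled profile of the 9 members over the 6 libraries. The first 5 were Lgals9 (r = 0.9995), Rnf213 (0.996), Lrrc3 (0.989), Lgals3bp (0.986) and Gbp3 (0.985). Lgals9, a galectin, had 4.78, 7.85 and 5.44 CPM in WT and 4.95, 4.49 and 7.89 CPM in KO. Rnf213, a large ubiquitin ligase outside the lists, had 55.0, 97.0 and 64.3 CPM in WT and 58.6, 54.5 and 97.9 CPM in KO. Since these genes were chosen for a profile high in 1 library of each genotype, their genotype difference was not read. Of the first 100 genes by this measure, 26 were in the 7 lists, beside 71 (0.558%) of all 12718. These r over 6 libraries are a description.

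Markers of other cells were read beside this pattern. Of 9 microglial markers, 7 had WT library 2 and KO library 3 highest, the exceptions being P2ry12 and Tmem119. Their summed level was 246, 306 and 273 CPM in WT and 246, 242 and 298 CPM in KO, with a median ratio of highest to lowest library of 1.25 and 1.26 per gene, smaller than the 1.76 and 1.71 of the members. Over the 9 microglial markers the median log2 fold change was 0.0094, with 5 above and 4 below 0, and 0 passed at an adjusted p-value. P2ry12, a receptor of resting microglia named after its values were seen, had groups that did not overlap, with 26.2, 27.0 and 27.4 CPM in WT and 22.8, 19.0 and 21.9 CPM in KO (log2 fold change -0.34; edgeR adjusted p = 0.550). The arrangement held for 1 of 7 endothelial, 2 of 6 blood and border myeloid, 1 of 5 meningeal, 0 of 5 choroid plexus, 0 of 4 astrocyte, 0 of 4 oligodendrocyte and 0 of 4 neuronal markers tested. Of 8 lymphocyte markers 1 was tested, Cd4, and it had the arrangement. The summed lymphocyte level, most of it Cd4, was also highest in WT library 2 (6.95 CPM) and KO library 3 (5.70 CPM), with lowest values of 5.65 CPM in WT and 5.14 CPM in KO. The T cell genes Cd3e, with 3 to 7 counts a library, Cd3g, with 2 to 5, and Cd3d, with 0 to 3, were too low to test. The blood and border myeloid markers summed to between 18.1 and 20.9 CPM in WT and between 16.7 and 25.5 CPM in KO, the highest being KO library 3. Endothelial markers summed to 230, 241 and 233 CPM in WT and 226, 225 and 251 CPM in KO, also highest in WT library 2 and KO library 3, and choroid plexus markers to between 310 and 364 and between 368 and 441 CPM. Gfap, an astrocyte filament protein that was singled out after its values were seen, had 115, 131 and 133 CPM in WT and 140, 128 and 248 CPM in KO, so it was high in KO library 3 but not in WT library 2 (log2 fold change 0.45; edgeR adjusted p = 0.622). The other astrocyte markers were Aqp4, lowest of all 6 libraries in KO library 3 (175 CPM; log2 fold change -0.17, edgeR adjusted p = 0.576), Aldh1l1 (0.18, edgeR adjusted p = 0.576) and Slc1a3 (0.0018, edgeR adjusted p = 0.996). The part of these cells in the values of the 9 genes was not tested.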

How the data were processed

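RNA over 200 bp from total brain was made into TruSeq total RNA libraries, per the labels' protocols. The submitters' processing notes name cutadapt 1.9.1 and STAR 2.7.0f without their settings. The authors deposited raw read counts per gene in the layout STAR writes. The genome build and annotation are not given in the sources used here, but the 55450 gene IDs are those of GENCODE M21 (GRCm38). The column for the strand opposite to the first read was used, which held between 94.6% and 94.8% of stranded counts. The 4 rows that name no gene (unmapped, mapped to several places, outside genes, ambiguous) held between 57.7% and 60.2% of reads, most of them outside genes on that strand (45.9% to 48.9% of reads), and were left out.

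Counts were tested in R 4.3.3 with edgeR 4.0.16 (filterByExpr, TMM, quasi-likelihood F test, genotype alone, all 6 libraries), with Benjamini-Hochberg adjustment over 21237 genes and calls at an adjusted p-value under 0.05. The SE is the log2 fold change divided by the square root of F, and 95% intervals use the test's degrees of freedom. On simulated counts for KO against WT over 21237 genes, 200 of them changed, the test recovered 3.5% of changes of 0.25 on the log2 scale, 51.5% of 0.5, 80% of 1 and 98.5% of 2, and 6.4% to 36.4% of its calls were false. The changed genes were drawn from all genes tested, each with its own dispersion. The members spread more between libraries than the median gene, so these shares do not state the recovery for the members. Each replicate pair differed by more than sampling noise (chi-square per degree of freedom at least 4.40).

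Members and lists were chosen with earlier results of these data known. Named were the 9 members, Trmt1l, the 3 most abundant genes of each pathway list, genes of those lists with an adjusted p-value under 0.05 or an unadjusted one under 0.01 (there were none), and the 5 genes of most similar pattern. Outside this rule, the list genes with an unadjusted p-value under 0.05 and the cell type markers named in the text were chosen after their values were seen. Of the 177 list genes, 174 were matched by symbol. Alternatives used DESeq2 1.42.0 and limma 3.58.1.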

Additional observations from a re-analysis of the deposited data

How the results depend on the processing

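The number of members called stayed at 0 with counts without strand, a minimum mean count of 50 (8 members fitted), scaling by DESeq2's size factors or by totals, limma-voom, edgeR's revised method and each fit without 1 library (range 0 to 0). Without a filter on low counts 1 member (B2m) and 1 gene of the wider lists (Calr) were called. DESeq2's Wald test gave none of the 9 members an adjusted p-value, as independent filtering left them out, and gave one to 5 of the wider lists' genes, of which 0 passed. The replicate block also called 0 members, with a median log2 fold change of -0.0048 and Irf7 at -0.0033. The deviations of same-numbered libraries correlated at 0.0402, -0.0314 and -0.0581, so no strong shift over all genes was shared by number. Such values cannot decide whether same-numbered samples shared a litter or day, which the labels do not give. With limma-voom H2-K1 turned to 0.0063 and Irf7 to -0.053.

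Without 1 library at a time the wider lists kept 0 calls (0 to 0; 2 to 22 genes at an unadjusted p-value under 0.05), and the median of the members ranged from -0.43 to 0.26. The log2 fold changes ranged from -0.47 to -0.03 for B2m, -0.16 to 0.16 for H2-D1, -0.21 to 0.26 for H2-K1, -0.89 to 0.64 for Irf7, -0.63 to 0.27 for Ifit1, -0.54 to 0.17 for Ifit3, -0.43 to 0.45 for Isg15, -0.31 to 0.0051 for Ifi27 and -0.25 to 0.47 for Bst2. With WT library 2 and KO library 3 both left out, added after the data were seen, H2-D1 turned to -0.044, H2-K1 to 0.060, Irf7 to -0.43, Isg15 to -0.16 and Bst2 to -0.0021. Isg15 rests on 29 to 83 counts a library.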
